A study of Mus musculus with 8 samples.

Results

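Potassium channel genes were taken as all genes whose symbol begins with Kcn followed by a letter, and 90 of the 22180 genes with a feature of their own on the array met that rule. They comprised 71 pore-forming subunit genes, 16 auxiliary subunit genes, the channel regulator gene Kcnrg and 2 non-coding RNA genes, Kcnd3os and Kcnq1ot1, which the symbol rule takes in although neither encodes a channel. Of the pore-forming genes, 36 were voltage-gated (Kcna to Kcnd, Kcnf to Kcnh, Kcnq, Kcns and Kcnv), 14 inward rectifier (Kcnj), 13 two-pore (Kcnk) and 8 of the calcium- and sodium-activated families (Kcnma, Kcnn, Kcnt and Kcnu). The rule used symbols, not measured values. Expression was measured on 8 arrays, 4 from mice labelled miR-183/96 KO, in which Mir183 and Mir96, a pair of clustered microRNA genes, are knocked out, and 4 from mice labelled control, which the design text calls wild type. All animals were at postnatal day 16, and each array held the RNA of both whole encapsulated cochleae of 1 animal, so bone, marrow and attached tissue were included with the sensory organ. The sources used here do not give strain, sex or the cells in which the deletion acts. The comparison asks which cochlear transcripts differ when the microRNAs are absent.

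The microRNAs that the knockout lacks are shown here because they are what separates the groups. They are given as RNA from 5′ to 3′ from RefSeq (GRCm38.p6, minus strand), with the seed, bases 2 to 8, in capitals, at chr6:30169506-30169528 for miR-96-5p and chr6:30169711-30169732 for miR-183-5p.
miR-96-5p: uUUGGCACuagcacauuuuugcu
miR-183-5p: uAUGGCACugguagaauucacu
The seeds share 6 of 7 bases. Target sites in the channel transcripts were not analysed here.

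Potassium channels set the membrane potential of excitable cells and carry potassium through epithelia. In the cochlea, potassium is secreted into endolymph by marginal cells of the stria vascularis through the channel formed by Kcnq1 and Kcne1, enters hair cells through the transduction channels, leaves them through basolateral channels and returns through supporting cells and fibrocytes. Kcnj10, an inward rectifier of strial intermediate cells and glia, is needed for the endocochlear potential. In auditory neurons, low-voltage-activated channels of the Kcna family and fast channels of the Kcnc family shape brief, precisely timed spikes.

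No potassium channel gene passed the test between knockout and control cochlea. In limma, with Benjamini-Hochberg adjustment over 23521 features, 0 of 90 passed at an adjusted p under 0.05 (0.0135% of all genes passed), and the smallest adjusted p of a member was 0.296. At an unadjusted p under 0.05 there were 7 of 90 members, or 7.78%, against 14.4% of all genes. Of these, 3 were lower in knockout cochlea (7.55% of all genes were) and 4 were higher (6.83% of all genes were). The lower ones were Kcnk1, Kcna1 and Kcne1, and the higher ones Kcnj1, Kcnv2, Kcnu1 and Kcnj5. After cyclic loess, which removes level-dependent differences between arrays, limma gave 1 lower (4.14% of all genes) and 4 higher (5.31% of all genes). The lower one was again Kcna1, and the higher ones were Kcnj1, Kcnv2, Kcna3 and Kcnc4, so Kcnu1 and Kcnj5 were not among them. All 90 log2 differences, knockout minus control, lay between -0.38 and 0.45, so the largest fold difference was 1.37, and 0 members reached a fold of 1.5, which 200 of all genes did. The median half-width of the 95% interval was 0.29 on the log2 scale, a fold of 1.22, which is the size of difference these 8 arrays could bound for a typical member. The count of 7 was 4 without control replicate 2, and 11 without knockout replicate 2 or without control replicate 3. All genes at that p were then 8.58%, 19.8% and 23.7%.

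**Figure D1:**
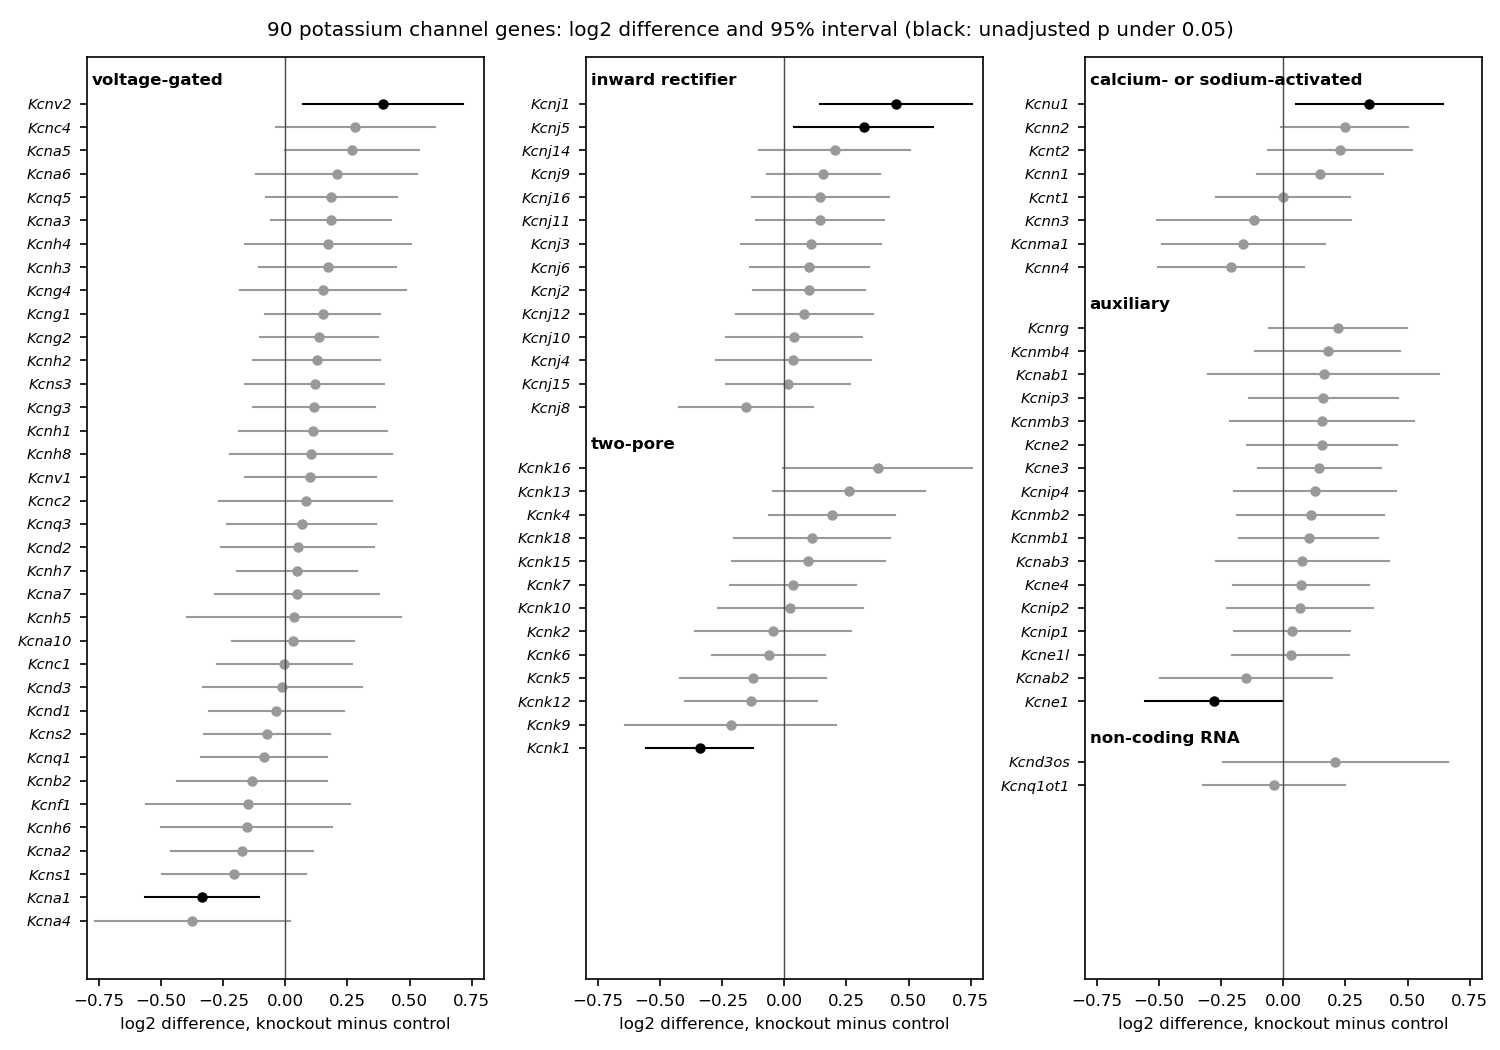
Log2 difference (knockout minus control, horizontal axis) of each of the 90 potassium channel genes with its 95% interval from limma, by structural class, over 4 knockout and 4 control animals. Black marks the 7 genes with an unadjusted p under 0.05, and the intervals of the other 83 genes include 0.

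The arrays themselves were described first by their targeted genes and tissue markers. Mir96, tested with limma, fell by 1.48 (log2; SE 0.17; adjusted p = 0.00932), its 4 knockout values lying below its 4 control values, and the Mir183 feature was too dim to check the labels (-0.33, adjusted p = 0.398). Calb2 and Snap25 were the other 2 called features, both lower, although Snap25 had an adjusted p of 0.240 with the replicate number as a block. The lateral wall genes Coch and Otos lay at percentiles 99.6 and 99.7 of features by mean level, and the 8 hair cell markers at percentiles 23.9 to 76.9. Between arrays the correlation over all features was 0.947 to 0.976. The signal range, meaning the spread of log2 values within an array (their SD), averaged 1.40 ± 0.03 over knockout arrays and 1.49 ± 0.06 over control arrays (SD, n = 4).

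The direction of the channel genes has to be read against that difference in signal range. Of the 90 members 64, or 71.1%, had a difference above 0, against 51.6% of all genes, and the median was 0.10 against 0.01. When all genes were put into deciles by mean level, the dimmest decile had a median difference of 0.13 and the brightest one of -0.21. Channel genes were spread over the lower 9 deciles, with 0 in the brightest. In deciles 5 to 9, counted from the dimmest, their median lay above that of all genes, as at 0.13 against -0.04 in decile 7. It lay below in deciles 3 and 4, at 0.108 against 0.112 and 0.04 against 0.08. Deciles 1 and 2, where it lay above, held only 1 and 2 members. After cyclic loess 50 members, or 55.6%, were above 0 against 48.5% of all genes, and the median was 0.03. With signal range as a covariate the median was -0.07, against -0.0041 over all genes, and 29 members were above 0. The part of signal range in the direction of the members was not tested.

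**Figure D2:**
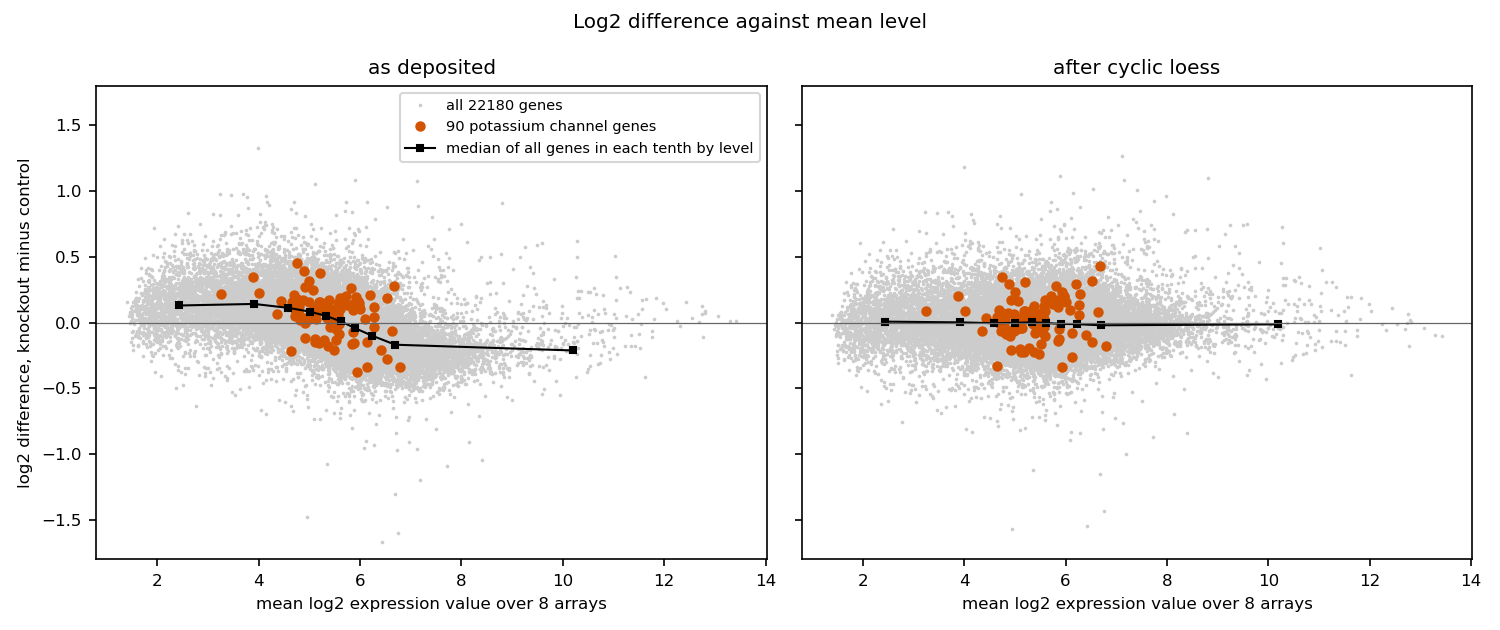
Log2 difference (vertical axis, knockout minus control) against mean log2 value over 8 arrays for 90 potassium channel genes (orange) and all 22180 genes (grey), as deposited on the left and after cyclic loess on the right. Black squares are medians of all genes in each decile by level, which go from 0.13 to -0.21 as deposited and lie near 0 after cyclic loess.

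Among channels of the lateral wall and endolymph, the auxiliary gene Kcne1 was lower in knockout cochlea without passing, and its partner Kcnq1 differed by less than the replicate spread. Kcne1 read 6.46, 6.19, 6.19 and 6.69 in the 4 knockout animals and 6.68, 6.71, 6.78 and 6.49 in the 4 control animals, each in the order of the replicate labels. The groups overlapped, because knockout replicate 4 lay among the control values and control replicate 4 below it. The log2 difference of Kcne1 was -0.28 (SE 0.13; limma unadjusted p = 0.0497, adjusted p = 0.350), and it was -0.15 after cyclic loess (unadjusted p = 0.327). It stayed under an unadjusted p of 0.05 in 5 of 21 alternatives.

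Kcnq1, the pore of the same channel, read 5.65, 5.61, 5.42 and 5.50 in knockout and 5.76, 5.59, 5.76 and 5.41 in control animals. Both groups covered nearly the same range, and the difference was -0.08 with a 95% interval from -0.34 to 0.17 (adjusted p = 0.737). Kcnj10 read 6.42, 6.01, 6.41 and 6.30 in knockout and 6.37, 6.07, 6.13 and 6.43 in control animals. Each group held both high and low animals, and the difference was 0.04 with an interval from -0.23 to 0.31 (adjusted p = 0.896). Kcnj16, an inward rectifier that assembles with Kcnj10, was at 0.15 (interval -0.13 to 0.42). A difference of the size of Kcne1 is not excluded by the Kcnq1 interval.

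No other listed gene of cochlear potassium circulation passed the test. Of 14 listed genes 9 were measured and 7 were below 0. At an unadjusted p under 0.05 there were 3 lower and 0 higher, against 7.55% and 6.83% of all genes. The 3 were Atp1b1, a subunit of the sodium-potassium pump, at -0.38, the chloride cotransporter gene Slc12a2, which loads potassium into marginal cells, at -0.41, and the connexin gene Gjb6 at -0.35. They passed no adjusted threshold (adjusted p = 0.291 to 0.309), and after cyclic loess they were at -0.23, -0.19 and -0.31. The other 6 lay between -0.24 (the connexin gene Gja1) and 0.07 (Slc26a4), with Bsnd, the barttin subunit of strial chloride channels, at 0.04. The list median was -0.22, and -0.04 after cyclic loess, against 0.01 and -0.01 over all genes. Atp1b1 and Slc12a2 lie at percentiles 99.1 and 97.1 by mean level, in the brightest decile, where the median of all genes was -0.21. Gjb6 lies at percentile 67.2, in decile 7 from the dimmest, where that median was -0.04. After cyclic loess the limma unadjusted p was 0.0386 for Gjb6, 0.0625 for Atp1b1 and 0.208 for Slc12a2. The list of 9 markers of the lateral wall and supporting cells had 6 members below 0, with mean levels of 6.57 to 6.90 among knockout and 6.76 to 6.94 among control animals. In whole cochlea, fewer cells of a type and less RNA per cell cannot be told apart.

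Among neuronal channels Kcna1 stood lowest, and the other listed members lay on both sides of 0. Kcna1, a low-voltage-activated channel of axons and auditory neurons, read 5.95, 5.80, 6.02 and 6.10 in knockout and 6.34, 6.40, 6.23 and 6.24 in control animals. Every knockout value lay below every control value. Kcna1 averaged 5.97 ± 0.13 over knockout and 6.30 ± 0.08 over control animals (SD, n = 4), a log2 difference of -0.34 (SE 0.11; 95% interval -0.57 to -0.10) and a fold of 1.26. Its limma unadjusted p was 0.00767 and its adjusted p 0.301. The groups did not overlap in 2 lower members, or 2.22%, against 2.75% of all genes. Kcna1 kept an unadjusted p under 0.05 in 20 of 21 alternatives, with differences from -0.38 to -0.26, and was at 0.0517 with both arrays of extreme muscle level left out.

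Kcna2, which co-assembles with Kcna1, read 5.15, 5.25, 5.29 and 5.44 in knockout and 5.48, 5.54, 5.69 and 5.13 in control animals. Its control replicate 4 lay below every knockout animal, and the difference was -0.17 (interval -0.46 to 0.11; adjusted p = 0.531). Without that animal it was -0.29 (limma unadjusted p = 0.0387), and with signal range as a covariate -0.47 (unadjusted p = 0.0111), the 2 of 21 alternatives under an unadjusted p of 0.05. Kcnc1, a fast channel of auditory neurons, read 5.02, 4.78, 4.89 and 4.94 in knockout and 5.17, 4.70, 4.81 and 4.96 in control animals. The Kcnc1 difference was -0.0038 with an interval from -0.28 to 0.27 (adjusted p = 0.991). Its feature lay at percentile 32.7 by mean level, and without a detection call, whether it was above background is not known.

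The remaining neuronal members were Kcnab2 (a cytoplasmic beta subunit of Kcna channels) at -0.15, the sodium-activated channel gene Kcnt1 at -0.00086, Kcnd2 (an A-type channel) at 0.05, Kcnq3 (a subunit of the M current) at 0.07, the beta subunit gene Kcnab1 at 0.16 and Kcna6 at 0.21. For Kcna6 a second, dimmer feature read -0.06. Of 12 neuronal channel genes listed 9 were measured, and the median was -0.00086. At an unadjusted p under 0.05, 1 was lower and 0 higher, against 7.55% and 6.83% of all genes. The A-type channel gene Kcna4, outside the list, was the lowest of all members at -0.38 (SE 0.18; adjusted p = 0.364). It read 5.37 to 5.98 in knockout and 5.59 to 6.43 in control animals, and a second feature read -0.12.

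Most neuron markers were lower in knockout cochlea, as Kcna1 was. Of 10 measured neuron markers 9 were below 0, 7 of them at an unadjusted p under 0.05 (7.55% of all genes were lower at that p). Among the 7 were Snap25 (-1.09, limma adjusted p = 0.0389) and Nefl (-0.91, adjusted p = 0.226), a neurofilament subunit. By level Snap25 lies in decile 10, Nefl, Nefh, Stmn2 and Tubb3 in decile 9, and Nefm and Uchl1 lower. In deciles 10 and 9, 30.2% and 20.8% of all genes were at that p in either direction. After cyclic loess Stmn2 and Tubb3 had a limma unadjusted p of 0.134 and 0.176. Snap25, Nefl, Nefm, Nefh and Uchl1 stayed under 0.05. The list median was -0.45, and -0.31 after cyclic loess. The mean level of the list was 5.83 to 6.14 in knockout and 6.27 to 6.64 in control animals, so the groups did not overlap. Syt1 was at -0.03 and Gap43 at 0.20. Of 4 measured myelin markers all 4 were below 0, at a mean level of 6.43 to 6.78 in knockout and 6.73 to 7.04 in control animals. At an unadjusted p under 0.05 there were 0 of the 4, and their median was -0.23, and -0.09 after cyclic loess. The mean of the 9 neuronal channel genes was 5.28 to 5.53 in knockout and 5.36 to 5.57 in control animals. The part of the neuron content in the Kcna1 value was not tested.

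**Figure D3:**
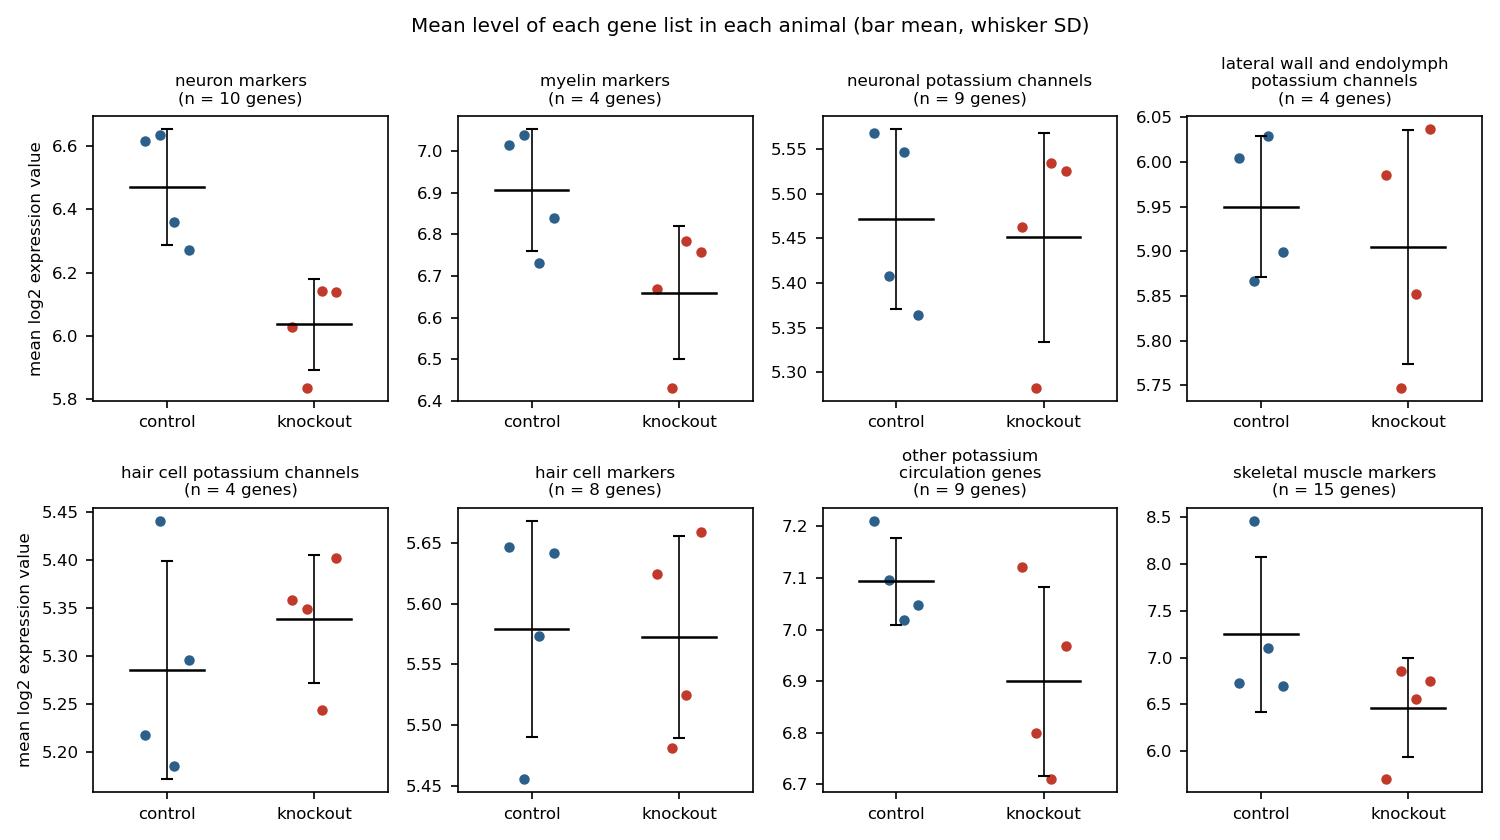
Mean log2 value of 8 gene lists in each of 4 control (blue) and 4 knockout (red) animals, with the group mean (bar) and SD (whisker) on a vertical axis scaled per panel. Neuron markers were separate between groups (5.83 to 6.14 against 6.27 to 6.64), while the 9 neuronal potassium channel genes overlapped.

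Proteins that partner these channels did not pass either. Of 14 measured genes 0 were under an unadjusted p of 0.05 (14.4% of all genes were), and 7 were below 0, with a median of -0.01. The smallest p belonged to Abcc9 (-0.27, adjusted p = 0.366), the sulfonylurea receptor that assembles with Kcnj8, and to Cntnap2 (-0.18, adjusted p = 0.458), the adhesion protein that clusters Kcna channels beside the node of Ranvier. Kcnj8 was at -0.16, the lowest of the inward rectifiers, with an interval from -0.43 to 0.11.

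Channels known in hair cells did not pass, and the 2 features of Kcnma1 went in opposite directions. Kcnma1 encodes the large-conductance calcium-activated channel that carries the fast potassium current of mature inner hair cells. Its brighter feature read 5.69, 5.82, 5.58 and 5.97 in knockout and 5.59, 6.32, 5.78 and 6.02 in control animals, a difference of -0.16 (SE 0.15; unadjusted p = 0.308 in limma). The dimmer feature read 5.76, 5.65, 6.06 and 6.03 in knockout and 5.57, 5.23, 5.60 and 5.54 in control animals, a difference of 0.39 (SE 0.13; limma unadjusted p = 0.0107, adjusted p = 0.301). All knockout values of that feature lay above all control values. Which transcripts either feature detects was not analysed here, so no direction can be given for Kcnma1.

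Kcnn2, the small-conductance channel beneath the efferent synapse of outer hair cells, read 5.41, 5.14, 5.05 and 5.18 in knockout and 5.07, 4.98, 4.81 and 4.93 in control animals. Knockout replicate 3 lay below control replicate 1, so the groups overlapped, and the difference was 0.25 (SE 0.12; limma adjusted p = 0.362). The inward rectifier gene Kcnj2, expressed by immature hair cells, was at 0.10 (interval -0.13 to 0.32). For Kcna10, a channel of the inner ear sensory epithelia, the value was 0.03 (interval -0.22 to 0.28). The 8 hair cell markers had 4 members below 0 and a mean level of 5.48 to 5.66 in knockout and 5.46 to 5.65 in control animals.

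Kcnk1 had the smallest p of all members. It encodes a two-pore channel that passes a weak background potassium current. Its values were 6.65, 6.59, 6.60 and 6.65 in knockout and 6.90, 7.12, 6.97 and 6.86 in control animals. The knockout values lay close together and all below the control values, at 6.62 ± 0.03 against 6.96 ± 0.11 (SD, n = 4). The difference was -0.34 (SE 0.10; 95% interval -0.56 to -0.13; limma unadjusted p = 0.00441, adjusted p = 0.296). After cyclic loess it was -0.18 (unadjusted p = 0.115), and the median of all genes in its decile by level, the ninth from below, was -0.17 as deposited.

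Of the 13 two-pore genes, 7 were above 0 and the median was 0.02. At the upper end Kcnk16, a channel of the pancreatic islet, was at 0.38 and Kcnk13, a halothane-inhibited channel, at 0.26. At the lower end, next to Kcnk1, was the acid-sensitive channel gene Kcnk9 at -0.22. Kcnk9 read 3.98 to 4.99 in knockout animals, a wider range than the 4.60 to 4.99 of control animals. Its lowest value was that of knockout replicate 1, without which the difference was -0.03. The limma adjusted p of these 3 was 0.354, 0.407 and 0.598.

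**Figure D4:**
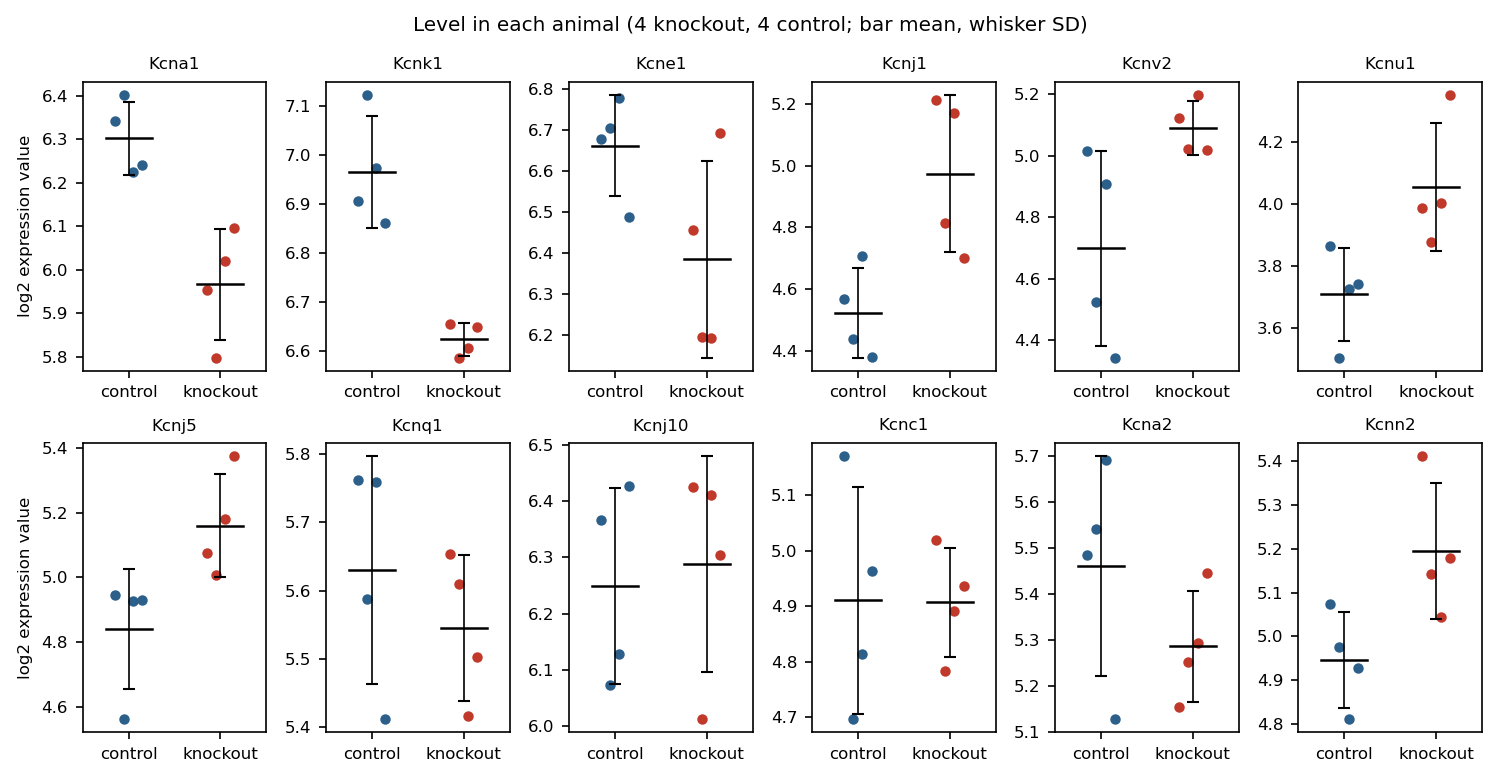
Log2 expression value of 12 potassium channel genes in each of 4 control (blue) and 4 knockout (red) animals, with the group mean (bar) and SD (whisker) and a vertical axis scaled per panel. Kcna1 and Kcnk1 were lower in all 4 knockout animals, Kcnv2, Kcnu1 and Kcnj5 higher, and Kcnq1, Kcnj10 and Kcnc1 overlapped.

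The 4 members that were higher at an unadjusted p under 0.05 were the inward rectifiers Kcnj1 and Kcnj5, the modifier subunit Kcnv2 and the sperm channel Kcnu1. Kcnj1, the potassium secretory channel of the renal tubule, read 5.21, 4.82, 5.17 and 4.70 in knockout and 4.57, 4.44, 4.71 and 4.38 in control animals. Knockout replicate 4 lay just below control replicate 3, so the groups overlapped by a small margin. The difference of 0.45 (SE 0.14; 95% interval 0.15 to 0.76) was the highest of all members (limma unadjusted p = 0.00702, adjusted p = 0.301) and was 0.34 after cyclic loess. Its feature lay at percentile 28.5 by mean level.

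Kcnj5, a subunit of G protein-gated channels, read 5.07, 5.01, 5.18 and 5.37 in knockout and 4.94, 4.56, 4.93 and 4.93 in control animals. Every knockout value was above every control value, and control replicate 2 stood apart below. The difference was 0.32 (SE 0.13; limma adjusted p = 0.315), and 0.23 after cyclic loess (unadjusted p = 0.0712). The other subunits of these channels, Kcnj3, Kcnj6 and Kcnj9, were at 0.11, 0.10 and 0.16. Over the 14 inward rectifiers 13 were above 0 and the median was 0.10. The lowest after Kcnj8 was Kcnj15 at 0.02 (interval -0.23 to 0.27). After cyclic loess 9 of 14 were above 0.

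Kcnv2, a silent subunit that modifies other voltage-gated channels and is known from photoreceptors, read 5.12, 5.02, 5.20 and 5.02 in knockout and 5.02, 4.52, 4.91 and 4.34 in control animals. Every knockout value was above every control value, but control replicate 1 came within the rounding of the lowest of them. The difference was 0.39 (SE 0.15; limma adjusted p = 0.305), and it was 0.08 with signal range as a covariate (unadjusted p = 0.693). Kcnu1, a channel of sperm, read 3.99, 3.88, 4.00 and 4.35 in knockout and 3.86, 3.50, 3.73 and 3.74 in control animals. Its lowest knockout value lay just above its highest control value. The difference was 0.35 (SE 0.14; limma adjusted p = 0.308), and its feature lay at percentile 13.9 by mean level. It was 0.20 after cyclic loess (unadjusted p = 0.139) and 0.21 with signal range as a covariate (unadjusted p = 0.321). No detection call was used here, so whether dim features, such as those of Kcnu1, Kcnv2, Kcnj1, Kcnj5, Kcnn2 and Kcnc1, were above background is not known. In all, 4 members were higher without overlap, or 4.44%, against 3.24% of all genes, and the fourth was Kcnj9 (unadjusted p = 0.160 in limma).

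Auxiliary genes other than Kcne1 and Kcnab2 were above 0. Of 17 auxiliary genes 15 were above 0, the median was 0.11, and after cyclic loess 11 were above 0 with a median of 0.04. The highest were Kcnrg at 0.22 and Kcnmb4, a beta subunit of the large-conductance channel, at 0.18, with limma adjusted p of 0.433 and 0.531. A second feature of Kcnmb4 read 0.28 (limma unadjusted p = 0.0315). The 4 Kcnip genes, calcium-binding partners of the Kcnd channels, were at 0.03 to 0.16. Among the voltage-gated genes, 24 of 36 were above 0, and 18 after cyclic loess, with a median of 0.07 and then 0.01. In that class Kcnc4, which is also known from skeletal muscle, was second highest at 0.28 (unadjusted p = 0.0807 in limma). Kcnc4 read 6.44, 6.60, 7.04 and 7.17 in knockout and 6.51, 6.62, 6.51 and 6.49 in control animals, so 2 knockout animals stood above the rest. After cyclic loess it was at 0.43 (unadjusted p = 0.0211).

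Neither the channels known from muscle and blood nor the markers of those tissues passed the adjusted test. Of 15 skeletal muscle markers 14 were below 0, 6 of them at an unadjusted p under 0.05 (7.55% of all genes were lower at that p). In deciles 9 and 10, the brightest by level, 20.8% and 30.2% of all genes were at that p in either direction. The mean level of the muscle markers was 5.70 to 6.86 in knockout and 6.70 to 8.46 in control animals. The 3 muscle channel genes were at 0.05 (Kcna7), 0.08 (Kcnj12) and 0.14 (Kcnj11), each with an interval that includes 0. Of the blood cell channels, Kcnn4, known from red cells, was at -0.21 (interval -0.50 to 0.08), and at -0.12 without knockout replicate 1. Kcna3, known from lymphocytes, was at 0.18 (interval -0.06 to 0.43). After cyclic loess Kcna3 was at 0.32 with an unadjusted p of 0.0194 in limma, the smallest of any member in that setting. Of 7 measured B cell markers 6 were below 0, all 6 at an unadjusted p under 0.05 (7.55% of all genes were lower at that p). Of these 6, Pax5 lies in decile 9 and the others in decile 10. After cyclic loess the limma unadjusted p was 0.0387 for Pax5 and 0.0761 (Cd79b) to 0.407 (Ebf1) for the others. The mean level of the 7 B cell markers was 7.07 to 7.34 in knockout and 7.31 to 7.63 in control animals. All 4 measured erythroid markers were below 0 as well, 1 of them at an unadjusted p under 0.05, at 7.30 to 7.90 against 7.48 to 8.33. The median differences of the muscle, B cell and erythroid lists were -0.72, -0.39 and -0.32 as deposited and -0.56, -0.22 and -0.14 after cyclic loess.

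**Figure D5:**
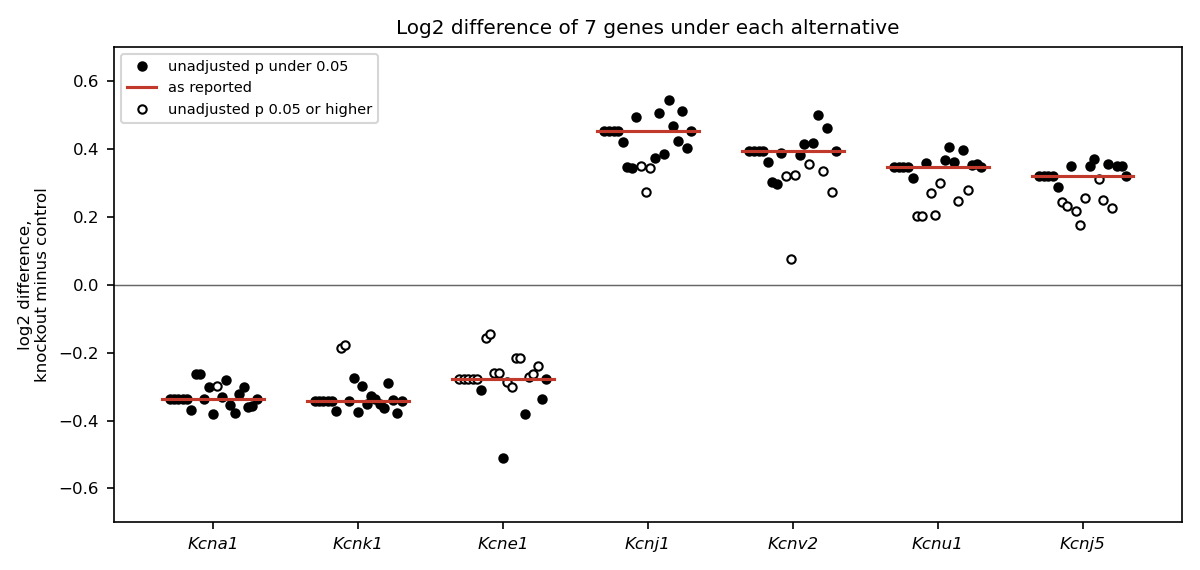
Log2 difference (vertical axis, knockout minus control) of the 7 potassium channel genes with an unadjusted p under 0.05, under each alternative (points) and as reported (red line). Filled points have an unadjusted p under 0.05 in limma, and the sign of each gene is the same in all of them, although Kcnv2 comes close to 0 at 0.08.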

How the data were processed

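Mouse Gene 2.0 ST arrays (Affymetrix) were used for 8 cochlear samples. The log2 values are gene-level RMA values that the authors deposited from Expression Console, per the labels. Their log2 scale was read from the values, and the sources used here do not give software version, annotation release or genome build. RMA is meant to make value distributions alike and compresses dim features. The deposited arrays still differed, with medians from 5.10 to 5.28 and SDs of log2 values from 1.37 to 1.56. Of 41345 features, the platform annotation linked 23521 to 1 symbol, and 4 features with a Kcn symbol among several were left out. Each gene was represented by its feature with the highest mean, which mattered for the 7 members with more than 1 feature. All 90 members matched RefSeq (GRCm38.p6) by gene identifier. Features were fitted together with lmFit and eBayes with an intensity trend in limma 3.58.1 under R 4.3.3, genotype being the only term, with Benjamini-Hochberg adjustment across the 23521. The standard error (SE) of each difference, knockout minus control, is limma's. Percentiles rank features by mean level, which shows dim against bright and is no comparison of abundance between genes.

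Members and lists were chosen with earlier results of these data known, so no test over the members is given. Named were genes past the threshold, those at an unadjusted p under 0.05 without overlap, the 2 highest and 2 lowest per structural class, and listed channel genes. Of the other lists, genes at an unadjusted p under 0.05 or the 2 of smallest p were to be named, but those of most marker lists are given as counts. Kcnj9, Kcnd3os, Olfr99 and others named beside their class, and second features, were chosen after their values were seen. Numbers per listed animal are in replicate order 1 to 4. Same-numbered samples deviated with correlations of 0.06, 0.21, 0.21 and -0.29, so the numbers were not taken as pairs. On simulated data of this comparison with 23521 features, the test called 98% of 50 features with a log2 change of 1, 46% of 50 with 0.6 and 4% of 50 with 0.3. These were planted in the same data set, with 50 more at 1.5 (100% called), and many calls ease the adjusted threshold. The real data had only 3 called features, so these shares can be too high for them. Nefl, at -0.91 in the real data, had a limma adjusted p of 0.226. The number of arrays limits the precision. Each p-value judges a group difference against the spread between animals, which limma moderates across features.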

Additional observations from a re-analysis of the deposited data

Results flagged for a closer look

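In 3 of 72 groups of 4 animals examined over the 36 named channel genes, or 4.17%, a single animal stood apart from the other 3, and chance gives about 5%. Kcnj5 read 4.56 in control replicate 2, with the nearest control animal at 4.93. The Kcnj5 difference was 0.23 without that animal (limma unadjusted p = 0.103). Kcnn4 read 6.04 in knockout replicate 1, the animal with the lowest muscle level, with the nearest at 6.37. Its difference was -0.21, and -0.12 without that animal. Kcnt1 read 5.16 in knockout replicate 2, with the nearest at 5.53. Its difference was -0.00086, and 0.10 without that animal.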

How the results depend on the processing

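No potassium channel gene passed the adjusted threshold in any of the 21 alternatives, including the replicate block, and the 36 named members kept their side of it in all 745 values. Their sign changed in 50 values of 16 genes, none of them called. The number of called features was 1 with all features of the value table, 8 with array weights, 1 with muscle level and 1 with signal range as a covariate, and 1 to 21 when each animal was left out in turn (1 without control replicate 1, 21 without control replicate 3). It was 3 under the replicate block, of which 2, Mir96 and Calb2, were shared. Snap25 lost its call there (adjusted p = 0.240), and Olfr99, an olfactory receptor gene at 1.33, gained one (limma adjusted p = 0.0212). The block gave 10 of 90 members at an unadjusted p under 0.05, against 15.7% of all genes. That count of members was 3 for the 63 with a mean of at least 5, 11 with array weights, 3 without both animals of extreme muscle level, and 4 to 11 when each animal was left out. With signal range as a covariate the median of the members was -0.069, against -0.0041 over all genes. In that setting 6 members were lower and 0 higher at that p, against 3.14% and 2.72% of all genes. The median of the members was 0.06 to 0.12 when each animal was left out. Signal range and the removal of both animals were chosen after seeing the data. The cause of these changes was not tested. Same-numbered animals did not correlate in every pair, so the block is a check of the number only. Without detection calls, the background level of dim features is unknown.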

Other observations

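The 10 modifier subunit genes of the Kcnf, Kcng, Kcns and Kcnv families, which alter other voltage-gated channels and form none alone, had a median log2 difference of 0.12, and 0.09 after cyclic loess. All 4 Kcng genes were above 0, at 0.11 to 0.15, while Kcns1 was at -0.21 and Kcnf1 at -0.15. The 8 Kcnh genes, of the ether-a-go-go family, were at -0.16 (Kcnh6) to 0.17 (Kcnh3 and Kcnh4). None was under an unadjusted p of 0.05 except Kcnv2.

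The non-coding RNA Kcnq1ot1, which lies within the Kcnq1 locus, was at -0.04 and Kcnd3os at 0.21. Of the 7 genes with a second feature, Kcna6 and Kcnma1 had features of opposite sign. For Kcnq5 the values were 0.19 and 0.0071, for Kcnj3 0.11 and 0.11, and for Kcnab3 0.08 and 0.02.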
